A study of Mus musculus with 12 samples.

Results

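The 3 TGF-beta ligands, their 3 receptors and the 4 latent TGF-beta binding proteins were followed in the thoracic aorta of mice given an agonist of the alpha 7 nicotinic acetylcholine receptor (α7nAChR). The genes were chosen by symbol for their roles in the pathway, and all 10 were found among the 25284 genes of the deposited count table. They are Tgfb1, Tgfb2 and Tgfb3, then Tgfbr1, Tgfbr2 and Tgfbr3, then Ltbp1, Ltbp2, Ltbp3 and Ltbp4.

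All 12 mice were male apoe-/- animals on a C57BL/6 background, fed a high fat diet with added cholesterol and 18 weeks old at the end. They lack apolipoprotein E in every tissue, controls included, and develop atherosclerosis. Through minipumps under the skin, 6 mice (A1 to A6) received AZ6983 for 8 weeks (daily dose 50 µmol per kg) and 6 control mice (C1 to C6) received vehicle. RNA came from whole vessel with all its cell types, so fewer cells of a type and less RNA per cell cannot be told apart.

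TGF-beta is a secreted signal that smooth muscle cells, fibroblasts and leukocytes of the artery wall make and read. It leaves the cell bound to its own propeptide in a latent form, which most latent binders tether to fibrillin in the matrix until integrins or other activators release it. Freed TGF-beta brings the type 2 receptor (Tgfbr2) and the type 1 receptor (Tgfbr1) together, the latter phosphorylates SMAD proteins, and these drive matrix and contractile genes in the nucleus. Defects of the receptors, ligands or fibrillin are known from inherited aneurysms of the thoracic aorta.

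The libraries held 23810036 to 35864666 reads on genes. Counts were scaled by edgeR's TMM method to CPM, counts on a common library total. The TMM factor was 0.837 for A5 and 0.987 to 1.07 for the other mice. A factor below 1 raises the CPM of every gene in that mouse. The smooth muscle markers, whose summed level was 13635 to 18157 CPM in controls and 10615 to 18171 CPM in AZ6983 mice, were all detected in every mouse. Mouse A5 had the lowest smooth muscle sum and the highest sums of brown fat (5467 CPM) and white fat markers (6126 CPM), and A4 had 1001 CPM of thymocyte and T cell markers against at most 39.6 in the others. Mouse A1 was matched to its library by 3 of the 4 digits of its number. Reads on no gene made up 8.02% to 12.7% of reads in controls and 11.2% to 14.9% in AZ6983 mice. Apoe had 117 to 306 counts per control and 214 to 311 per AZ6983 mouse, but which part of the gene they come from is not given, so they do not check the genotype. Chrna7, which encodes the receptor of AZ6983, had 27 to 114 and 19 to 76 counts.

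Tgfb1 lies on chromosome 7 of the mouse genome build mm10 (25687002 to 25705077, plus strand), 1.6 Mb from Ltbp4 (27305136 to 27337692, minus strand). Tgfb3 (86056745 to 86079041) and Ltbp2 (84783212 to 84876532) are 1.18 Mb apart on the minus strand of chromosome 12. Tgfb2 is on chromosome 1 (186622792 to 186705989, minus), Tgfbr1 on 4 (47353222 to 47414931, plus), Tgfbr2 on 9 (116084293 to 116175360, minus) and Tgfbr3 on 5 (107106570 to 107289629, minus). Ltbp1 is on chromosome 17 (75005568 to 75392512, plus) and Ltbp3 on 19 (5740904 to 5758532, plus). These positions are from GENCODE M21, and all 10 genes are protein coding. The deposited counts hold 1 value per gene symbol, so the long and short forms that Ltbp1 and Ltbp4 make from separate promoters are not told apart. Which exons were counted is not given. Some exon bases of Tgfbr3 are shared with Gm43422 on the same strand. Whether the counting used strand is not given, so reads in such stretches may have been set aside or misplaced.

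The promoters of Ltbp3 and Ltbp4 are printed because these genes varied together most closely of all pairs across the 12 mice, as described further on. Each line gives the 250 bases before the RefSeq start on build GRCm38.p6, the build also called mm10, 5′ to 3′ on the gene's strand, at chr19:5740650-5740899 for Ltbp3 and chr7:27337613-27337862 for Ltbp4. Capitals mark the SMAD-binding box CAGAC, the GC box GGGCGG and the TATA box TATAAA on either strand.
Ltbp3: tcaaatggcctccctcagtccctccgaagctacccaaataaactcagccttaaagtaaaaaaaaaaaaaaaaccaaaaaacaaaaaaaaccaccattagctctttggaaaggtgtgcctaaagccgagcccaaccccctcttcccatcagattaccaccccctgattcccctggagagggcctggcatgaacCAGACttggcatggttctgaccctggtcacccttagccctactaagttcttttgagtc
Ltbp4: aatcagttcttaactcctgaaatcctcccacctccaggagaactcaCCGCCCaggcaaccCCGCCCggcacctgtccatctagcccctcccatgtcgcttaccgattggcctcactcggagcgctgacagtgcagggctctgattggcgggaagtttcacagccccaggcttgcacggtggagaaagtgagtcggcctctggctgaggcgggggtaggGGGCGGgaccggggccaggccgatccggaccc
The Ltbp3 stretch held 1 SMAD-binding box and 0 GC boxes, and 47.2% of its bases were G or C. In Ltbp4, taken at the one of its 3 listed starts nearest the annotated gene start, there were 0 SMAD-binding boxes and 3 GC boxes, with 64.4% G or C. Of 32851 promoter stretches of this length, 42.2% held the SMAD-binding box, 32.7% the GC box and 12.4% the TATA box, with a median G or C share of 52.4%. Of the 8 members with an entry, Tgfb2 was the one with a TATA box, and Tgfb1 had the most GC boxes, 5, and 75.2% G or C. A match is no evidence that a factor binds there.

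Per kilobase of exon, the binders Ltbp1 and Ltbp4 and the ligand Tgfb3 were the most abundant members, and Tgfb1 was the least. Ltbp1, which covalently binds the latent ligand, had a median level of 61.9 CPM per kilobase over the 12 mice (45.2 to 79.5), and Ltbp4, which also serves elastic fibre assembly, had 53.3 (41.3 to 83.3). Tgfb3 was at 40.01 CPM per kilobase (32.3 to 51.9), Tgfbr1 at 32.5 (21.1 to 39.0), Tgfbr2 at 24.6 (22.5 to 27.4) and Tgfbr3, the co-receptor betaglycan, at 18.4 (16.7 to 22.4). Ltbp2, a fibrillin-binding member that does not bind latent TGF-beta, followed at 12.5 (9.002 to 24.2), then Ltbp3 at 9.54 (7.20 to 19.1), Tgfb2 at 7.54 (4.56 to 12.4) and Tgfb1 at 2.57 (1.96 to 3.68). Between neighbours in this order the ranges over mice were separate for Tgfbr2 against Tgfbr3 and for Tgfb2 against Tgfb1, and overlapped for the other 7 pairs. Even so, the order held within 9 of 12 mice for Ltbp1 over Ltbp4 and within 10 to 12 of 12 mice for the other pairs.

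**Figure D1:**
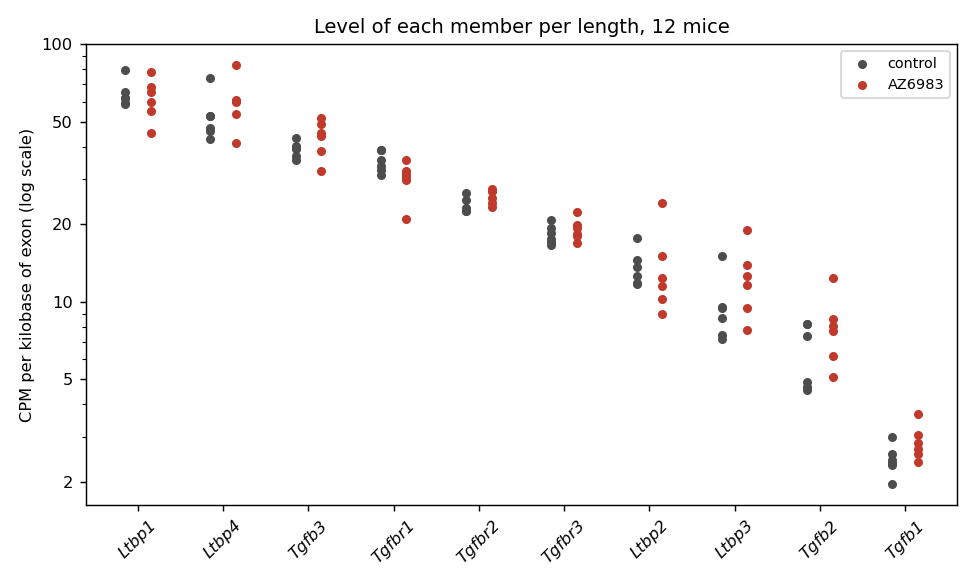
Level of each member in CPM per kilobase of exon (log scale) for 6 control (grey) and 6 AZ6983 (red) mice, 1 point per mouse, ordered by the median over mice. Ltbp1 and Ltbp4 lie above 40 in every mouse and Tgfb1 below 4, and the red and grey points overlap for every gene.

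Within the ligands, Tgfb3 made up 81.8% ± 3.30 (SD, n = 6) of the summed level per kilobase under vehicle and 80.0% ± 3.60 (SD, n = 6) under AZ6983. Tgfb2 accounted for 13.1% ± 3.05 and 14.6% ± 3.15, and Tgfb1 for 5.11% ± 0.755 and 5.36% ± 1.07 (SD, n = 6 each). With the longest transcript as length in place of all exons, the Tgfb1 share ran from 7.25% to 13.2% over the mice, against 3.89% to 7.35%, and the Tgfb3 share from 70.9% to 82.3%. The ligand mix overlapped between the groups, and Tgfb3 led it in each of the 12 mice, from 76.3% in A2 to 86.4% in A1.

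Treatment with AZ6983 was compared with vehicle in edgeR's quasi-likelihood test over 15857 genes, those left by its filter on low counts, all 10 members among them. At 10% FDR (Benjamini-Hochberg), the threshold of the study, 0 of the 10 members passed, against a background of 0% of all genes tested. Nor did any have an unadjusted p under 0.05 in edgeR (0 of 10, against 10.2% of all genes), while DESeq2, the study's tool, gave such a p to 1, Tgfbr1 (7.91% of all genes with a p in DESeq2), with adjusted p of at least 0.466 over the 10 and 0 past 10% FDR (0.523% of all genes in DESeq2). Without mouse A5, 0 of 10 passed 10% FDR in edgeR, as against 0.169% of all genes. An unadjusted p under 0.05 was reached by 3 of 10 (Tgfb1, Tgfbr2 and Ltbp3) without C6, where 11.9% of all genes had one, and by 2 of 10 (Tgfbr1 and Ltbp3) in limma-voom with sample quality weights, where 15.4% did. For 0 of the 10 the groups were separate, where 0.41% of all genes had groups that did not overlap. The log2 fold changes, AZ6983 over control, ran from −0.22 for Tgfbr1 to 0.38 for Ltbp3 with a median of 0.13, while the median of all genes was 0.0090. Of the 10, 8 had a positive log2 fold change (52.4% of all genes did), which became 7 with upper quartile scaling, library totals alone, no filter or limma-voom, where Ltbp2 turned negative, and 3 with the percentage of no-gene reads as a covariate. No member's 95% interval held a doubling or a halving. The highest upper bound was 0.85 (log2) for Ltbp3 and the lowest lower bound −0.46 for Tgfbr1. An exact permutation test on log2 CPM, two-sided over 924 assignments of mice, gave unadjusted p of 0.0476 to 0.816 for the members and adjusted p of 0.528 to 0.965 over all genes. Of the members only Tgfbr1 (0.0476) was under 0.05 in this test, as were 1480 of the 15857 genes.

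**Figure D2:**
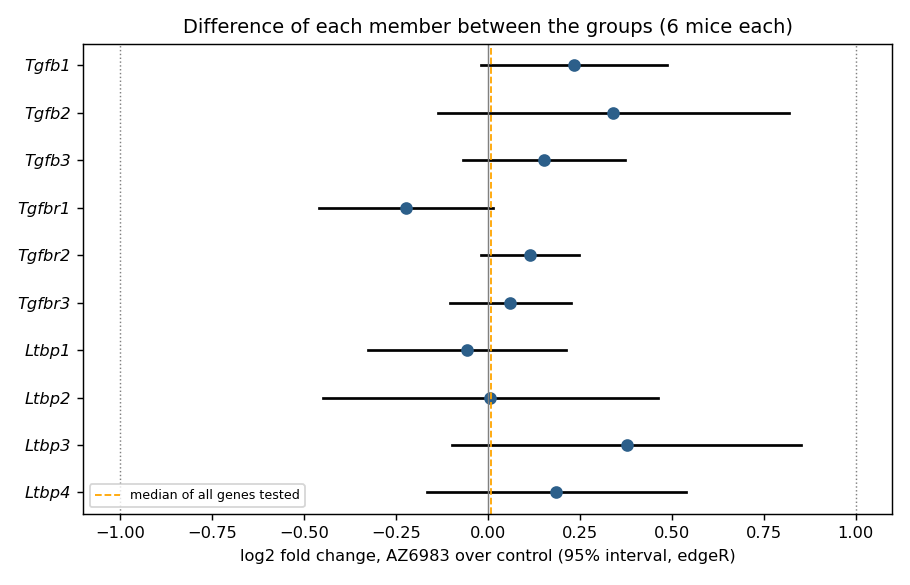
Log2 fold change of each member, AZ6983 over control, with its 95% interval from edgeR (6 mice per group). Every interval includes 0 and lies between the dotted lines at −1 and 1, and the dashed line is the median of all genes tested.

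Among the ligands, Tgfb1, the form that leukocytes and platelets carry, was at 9.87 to 15.1 CPM in controls (median 12.1) and 12.1 to 18.6 CPM in AZ6983 mice (median 13.9). After TMM scaling, mice A2 and A5 lay above every control, A5 only through its low TMM factor. The remaining AZ6983 mice lay within the control range. The log2 fold change was 0.23 (standard error 0.117, 95% interval −0.02 to 0.49, adjusted p = 0.509 from edgeR). It was 0.14 without A2 and −0.0088 with the percentage of no-gene reads as a covariate. Among markers of blood cells, some of which hold this ligand, 0 genes of any list passed 10% FDR in edgeR, against 0% of all genes tested. The paper's own DESeq2 list at 10% FDR does hold some of them as higher. These are the neutrophil markers Ltf, Camp, Ngp and Csf3r and the platelet marker Gp1ba. Summed neutrophil markers were at 16.8 to 53.1 CPM in controls and 34.5 to 239 CPM in AZ6983 mice, and 6 of the 6 tested (8 listed) had an unadjusted p under 0.05 (edgeR, against 10.2% of all genes), while Elane and Mpo had 0 counts in some mice. Summed platelet markers were at 22 to 43.9 and 22.8 to 248 CPM, with an unadjusted p under 0.05 for 5 of 6, and at 22.8 to 55.8 CPM in the AZ6983 mice other than A3. Of the macrophage markers 0 of 8 had such a p, and of the thymocyte and T cell markers 6 of the 6 tested did, with A4 far above the rest. Exact permutation tests of the scores, two-sided, gave p = 0.00433 for neutrophil, 0.0606 for platelet, 0.961 for macrophage and 0.320 for thymocyte and T cell markers (adjusted p = 0.0519, 0.182, 0.983 and 0.481 over 12 scores). The mouse with 248 CPM of platelet markers, A3, had the lowest Tgfb1 of the AZ6983 mice. No correlation of Tgfb1 with these blood cell scores was computed, and the part of these cells in its values was not tested.

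Tgfb2, a ligand known from development of the heart and great vessels, was at 26.4 to 47.6 CPM in controls (median 35.6) and 29.6 to 71.9 CPM in AZ6983 mice (median 45.6). Controls fell into a lower trio (C1, C3 and C4) and a higher one (C2, C5 and C6), and A2 and A3 exceeded them all. Its log2 fold change was 0.34 (standard error 0.221, 95% interval −0.14 to 0.82, adjusted p = 0.581 from edgeR), and 0.16 without A2. Tgfb2 moved with the percentage of no-gene reads over the 12 mice (Pearson's r = 0.790, permutation p = 0.00239, adjusted p = 0.0398 over 50 relations of members to tissue or library measures, and Spearman's rho = 0.685, permutation p = 0.0166, adjusted p = 0.162). Within controls r was 0.747 and within AZ6983 mice 0.842, and without A2 and C1 it was 0.623. With that share in the model, the log2 fold change of Tgfb2 was −0.29. The share ranged higher in AZ6983 mice than in controls, and its part in the result was not tested beyond this fit.

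Tgfb3, the main ligand transcript of these aortas, was at 121 to 147 CPM in controls (median 133) and 109 to 176 CPM in AZ6983 mice (median 151). Of the AZ6983 mice 4 lay above every control, while A5 lay below every control. The log2 fold change was 0.15 (standard error 0.102, 95% interval −0.07 to 0.37, adjusted p = 0.589 from edgeR) and 0.20 without A5, when its unadjusted p was 0.0226 (adjusted p = 0.327, edgeR), where 12.8% of all genes had an unadjusted p under 0.05. Without A2 it was 0.08 (unadjusted p = 0.436, adjusted p = 0.811, edgeR).

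**Figure D3:**
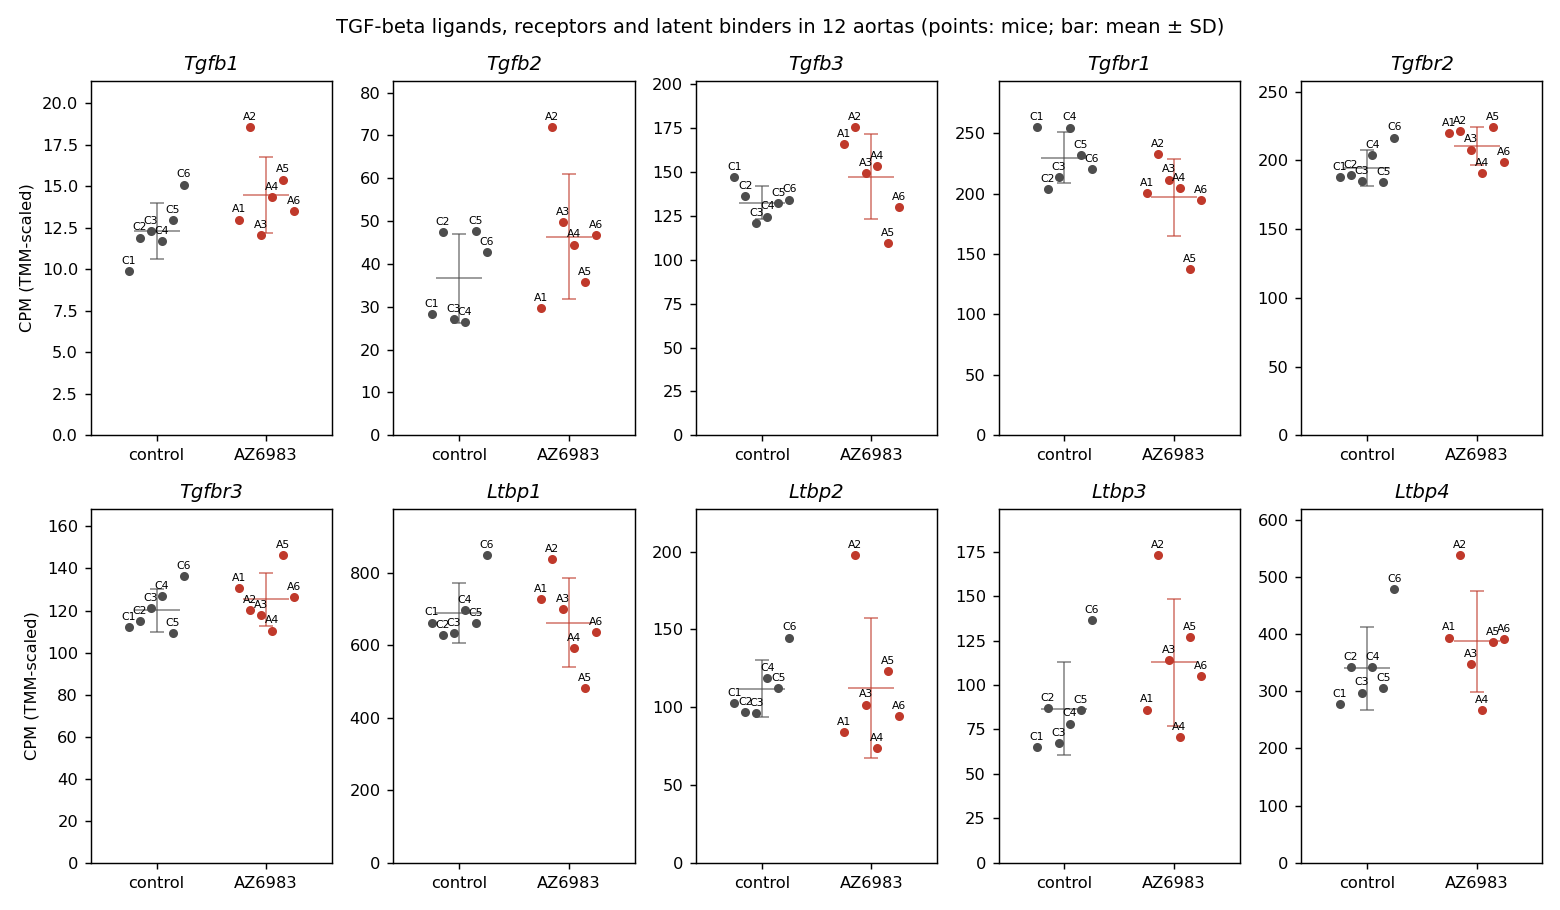
CPM of each member in every mouse, control in grey and AZ6983 in red, with the mean and SD of each group. A2 is the highest mouse in 6 panels, C6 the highest control in 7, and A5 is the lowest mouse for Tgfb3, Tgfbr1 and Ltbp1.

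Of the receptors, Tgfbr1 alone had a negative point estimate, and its interval included 0. This kinase, which passes the signal to SMADs, was at 204 to 255 CPM in controls (median 226) and 138 to 233 CPM in AZ6983 mice (median 203). Mice A1, A5 and A6 lay below every control and 0 AZ6983 mice lay above the highest. The log2 fold change was −0.22 (standard error 0.109, 95% interval −0.46 to 0.01, adjusted p = 0.505 from edgeR), and −0.16 without A5. Across the 12 mice Tgfbr1 had a Pearson's r of 0.788 with the smooth muscle marker score, the mean log2 CPM of 8 markers (permutation p = 0.00592, adjusted p = 0.0592, Spearman's rho = 0.692, permutation p = 0.0159). Within controls this r was 0.676 and within AZ6983 mice 0.948. It was weaker without A5 (0.481) and without A5 and C2 (0.416).

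Tgfbr2, which binds the ligand first, was at 185 to 217 CPM in controls (median 188) and 191 to 224 CPM in AZ6983 mice (median 214). It was the steadiest member, with an SD within groups of 0.0944 log2 units, less than in all but 8.63% of genes. In 3 AZ6983 mice (A1, A2 and A5) it lay above every control after TMM scaling, in A5 only through its low TMM factor. The log2 fold change was 0.11 (standard error 0.0615, 95% interval −0.02 to 0.25, adjusted p = 0.532 from edgeR). Tgfbr3, which presents the ligand to Tgfbr2, was at 109 to 136 CPM (median 118) and 110 to 146 CPM (median 123). Only A5 exceeded the controls, and did so only through its low TMM factor. The log2 fold change of Tgfbr3 was 0.06 (standard error 0.0760, 95% interval −0.10 to 0.23, adjusted p = 0.779 from edgeR).

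The ratio of Tgfbr1 to Tgfbr2, both per kilobase, was 1.48 ± 0.159 (SD, n = 6) in controls, from 1.27 in C6 to 1.70 in C1. In AZ6983 mice it was 1.18 ± 0.213 (SD, n = 6), from 0.769 in A5 to 1.34 in A4. There were 3 AZ6983 mice below the lowest control and the groups overlapped. This ratio was formed after the values of both genes were seen and was not tested.

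Among the latent binders, Ltbp3 had the largest point estimate of the 10 members and Ltbp2 the smallest in size. Ltbp3, needed for secretion of latent TGF-beta, was at 65.3 to 136 CPM in controls (median 82.1) and 70.7 to 173 CPM in AZ6983 mice (median 110). Of the AZ6983 mice A2 alone lay above the highest control, C6, and the log2 fold change was 0.38 (standard error 0.220, 95% interval −0.10 to 0.85, adjusted p = 0.550 from edgeR). Without C6 it was 0.55 and without A2 it was 0.20. Ltbp4 was at 277 to 479 CPM in controls (median 324) and 267 to 538 CPM in AZ6983 mice (median 388), with A2 above and A4 below every control. Its log2 fold change was 0.19 (standard error 0.163, 95% interval −0.17 to 0.54, adjusted p = 0.678 from edgeR), with 0.05 without A2 and 0.31 without C6.

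Ltbp1 was at 630 to 850 CPM in controls (median 662) and 483 to 838 CPM in AZ6983 mice (median 668). Mice A4 and A5 lay below every control, and the log2 fold change was −0.06 (standard error 0.125, 95% interval −0.33 to 0.21, adjusted p = 0.893 from edgeR). Ltbp2 was at 96.1 to 145 CPM (median 107) and 73.7 to 198 CPM (median 98.1), with A2 above and 3 AZ6983 mice (A1, A4 and A6) below every control. The log2 fold change of Ltbp2 was 0.01 (standard error 0.210, 95% interval −0.45 to 0.46, adjusted p = 0.995 from edgeR). That value rested on A2, at 198 CPM, while 4 of 6 AZ6983 mice lay below the control mean. Without A2 it was −0.25. With the no-gene share as a covariate, the log2 fold change was −0.41 for Ltbp2, −0.11 for Ltbp3, −0.11 for Ltbp4 and −0.01 for Tgfb1, and 3 of the 10 members then had a positive one. In that fit 0 of 10 had an unadjusted p under 0.05, against 2.95% of all genes.

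Single mice stood at the ends of many members' ranges. Mouse A2 had the highest value of all 12 mice for 6 of the 10 members (Tgfb1, Tgfb2, Tgfb3, Ltbp2, Ltbp3 and Ltbp4), where it was highest for 12.6% of all genes. Among controls C6 was highest for 7 of the 10, where it was highest for 24.4% of all genes. Mouse A5 was the lowest of 12 for Tgfb3, Tgfbr1 and Ltbp1 and the highest for Tgfbr2 and Tgfbr3, and it was lowest for 21.5% of all genes and highest for 18.5%. The high places of A5 depended on its TMM factor of 0.837. By library totals it was not highest: for Tgfbr2 A1 had 5926 counts on 26056762 gene reads, and A5 had 5488 on 29275555. For Tgfbr3 C6 had 4013 counts on 27952811 gene reads, and A5 had 3584. For Tgfb1 C6 had 444 counts and A5 had 377. Within groups the SD was 0.417 log2 units for Ltbp3, 0.426 for Tgfb2, 0.390 for Ltbp2 and 0.304 for Ltbp4, where the median of all genes was 0.217.

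Ltbp3 and Ltbp4 varied together across the mice. Pearson's r of their log2 CPM was 0.904 (permutation p = 4.00e-05, adjusted p = 0.00180 over 45 pairs of members) and Spearman's rho was 0.881 (permutation p = 0.000280, adjusted p = 0.0126). The relation was present in controls (r = 0.951) and AZ6983 mice (r = 0.861), and r was 0.773 without A2 and C6, the mice farthest from the median of Ltbp3. Of the 45 pairs, 8 had an adjusted p under 0.05 by Pearson's r, all 8 positive, and Ltbp3 with Ltbp4 was the 1 pair that also passed by Spearman's rho. Tgfbr2 followed Ltbp4 (r = 0.809, permutation p = 0.00114, adjusted p = 0.0256, rho = 0.769, permutation p = 0.00492, adjusted p = 0.103), and r was 0.802 without A2 and A5. The pairs of Ltbp2 with Ltbp3 (r = 0.764, permutation p = 0.00303, adjusted p = 0.0301, rho = 0.538, permutation p = 0.0751) and with Ltbp4 (r = 0.748, permutation p = 0.00494, adjusted p = 0.0318, rho = 0.427, permutation p = 0.168) rested on A2 and C6, without which r was 0.382 and 0.272. Tgfb1 with Ltbp3 (r = 0.786, permutation p = 0.00208, adjusted p = 0.0301, rho = 0.671, permutation p = 0.0196) had an r of 0.532 without A2 and C1. All pairs share the 12 libraries and their scaling. The share of all gene pairs with such a p was not computed. Whether 8 of 45 is more than among other genes is therefore not known.

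**Figure D4:**
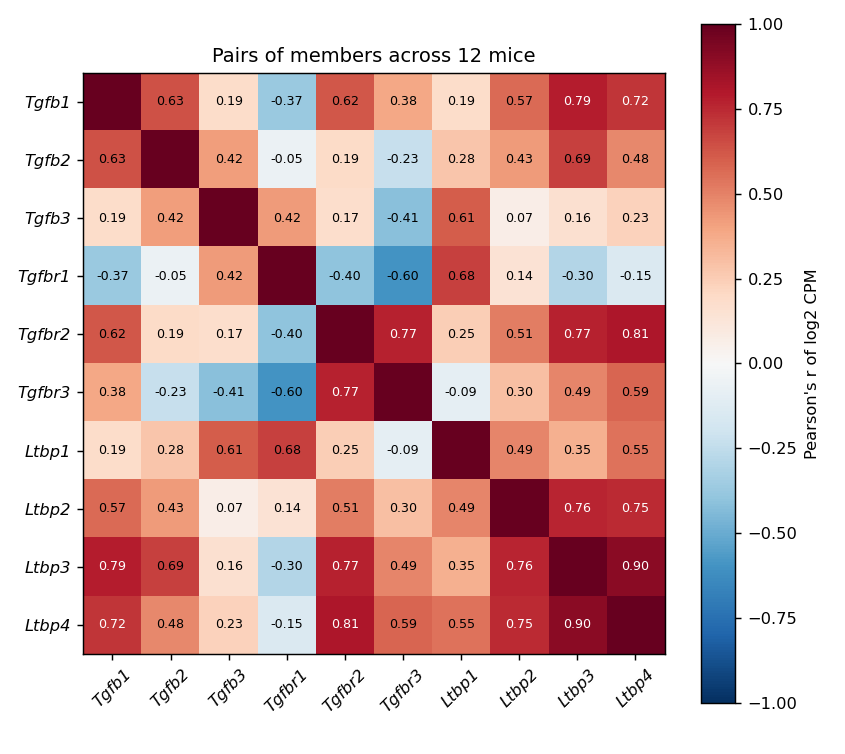
Pearson's r of log2 CPM over 12 mice for each pair of members, from blue (−1) to red (1). Ltbp3 and Ltbp4 have the highest r, 0.90, and Tgfbr1 with Tgfbr3 the lowest, −0.60 (adjusted p = 0.121).

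Ltbp1 followed the adventitial fibroblast marker score, the mean log2 CPM of 8 markers, over the 12 mice (r = 0.835, permutation p = 0.000790, adjusted p = 0.0395, rho = 0.860, permutation p = 0.000700, adjusted p = 0.0350). Its r with this score was 0.862 in controls, 0.876 in AZ6983 mice and 0.846 without A1 and A2. With the smooth muscle score its r was 0.802 (permutation p = 0.00160, adjusted p = 0.0398, rho = 0.706, permutation p = 0.0125, adjusted p = 0.162), and 0.575 without A5 and C2. Of the 50 relations to 4 marker scores and the share of reads on no gene, 3 passed by Pearson's r and 1 of them, Ltbp1 with the fibroblast score, also by Spearman's rho. How many relations of other genes to these measures would pass was not computed. For neither of these 2 scores was a difference in group means detected (exact permutation p = 0.794 for fibroblast and 0.719 for smooth muscle markers, two-sided, adjusted p = 0.953 for both). Single mice did leave the control range. The smooth muscle score of A5 lay below every control. For the fibroblast score A1 and A2 lay above every control, and A4 and A5 below. Tgfb3 ran against the brown fat score (r = −0.744, permutation p = 0.00558, adjusted p = 0.0592, rho = −0.671, permutation p = 0.0195, adjusted p = 0.162), and without A4 and A5 r was −0.597.

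The genes with the pattern most like each member were taken as the highest Pearson's r over the 12 mice among the other 15856 genes, as a description. For Ltbp4 they were Slit3 (r = 0.988), a guidance ligand, and Lrp1 (r = 0.984), an endocytic receptor, and for Ltbp3 they were Nfix (r = 0.985), a transcription factor, and Hspg2 (r = 0.982), which encodes the basement membrane proteoglycan perlecan. Hspg2 spanned 454 to 1353 CPM over the mice and Lrp1 793 to 1797 CPM. Ltbp1 was closest to Chsy1 and Fkbp10 (both r = 0.970), enzymes of chondroitin synthesis and of collagen folding, and Ltbp2 to Agrn (r = 0.883) and Sox9 (r = 0.877). Tgfbr1 was closest to Tmed7 (r = 0.957) and Tmx1 (r = 0.949), proteins of the secretory pathway, Tgfbr2 to Arhgef40 (r = 0.916) and Cul9 (r = 0.895), and Tgfbr3 to Zfp467 (r = 0.908). For the ligands these were Cic (r = 0.940) and Prrc2c (r = 0.929) with Tgfb1, Fam126a (r = 0.913) and Scube3 (r = 0.903) with Tgfb2, and Dpt (r = 0.887), a fibroblast matrix gene, and Slc17a9 (r = 0.879) with Tgfb3.

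Around the members, 79 other genes of the pathway were listed, all of them in the table, and 75 passed the filter on low counts. Of these 75, 0 passed 10% FDR in edgeR, and 0 did so in any of the 23 alternatives, DESeq2 included. An unadjusted p under 0.05 was found for 8, of which 5 were higher and 3 lower in AZ6983 mice (10.7%, against 10.2% of all genes, 7.38% higher and 2.81% lower). Their median log2 fold change was 0.03.

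Of 18 tested genes for storage and activation (21 listed), 2 had an unadjusted p under 0.05, both higher, and the median log2 fold change was 0.05. Lrrc32, a membrane anchor for latent TGF-beta, averaged 38.7 ± 4.99 CPM under vehicle and 47.5 ± 6.07 CPM under AZ6983 (SD, n = 6 each), and edgeR gave a log2 fold change of 0.30 (adjusted p = 0.448). Fbn1, the fibrillin to which latent binders attach, averaged 482 ± 96.6 and 602 ± 113 CPM (SD, n = 6 each), and its log2 fold change was 0.32 (adjusted p = 0.487 from edgeR). The integrin Itgb3 had the next smallest p of this list, with a log2 fold change of 0.27 (adjusted p = 0.530, edgeR). For each of these genes the groups overlapped.

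In the 10 tested co-receptors and receptor partners, 0 had an unadjusted p under 0.05 in edgeR, and the median log2 fold change was 0.08. The 3 with the smallest p had negative values. They were Cd109, a membrane protein that binds TGF-beta (−0.31, adjusted p = 0.508), Zfyve9, which brings SMADs to the receptor (−0.11, adjusted p = 0.521), and the endothelial receptor Acvrl1 (−0.16, adjusted p = 0.524). Among the 10 Smad signal carriers 1 gene, Smad1, had an unadjusted p under 0.05, which averaged 25.7 ± 1.13 CPM under vehicle and 27.8 ± 1.43 CPM under AZ6983 (SD, n = 6 each). It exceeded every control in 4 of 6 treated mice (log2 fold change 0.11, adjusted p = 0.487, edgeR). Smad2, which carries the TGF-beta signal proper, had a log2 fold change of 0.09 (adjusted p = 0.581), and Smad9, of the BMP branch, of −0.24 (adjusted p = 0.501).

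Of the 11 signal inhibitors 2 had an unadjusted p under 0.05, in opposite directions. Smurf1, a ubiquitin ligase that marks receptors and SMADs for decay, averaged 36.9 ± 3.63 CPM under vehicle and 42.8 ± 4.13 CPM under AZ6983, and Ppm1a, a phosphatase of SMADs, at 127 ± 7.52 and 114 ± 9.97 CPM (SD, n = 6 each). Their log2 fold changes were 0.22 and −0.16 (adjusted p = 0.450 and 0.460 from edgeR), and for Ppm1a 5 of 6 AZ6983 mice lay below every control. Ski, a SMAD co-repressor, had a log2 fold change of 0.11 (adjusted p = 0.627).

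The 26 response genes split evenly, 13 higher and 13 lower, with a median log2 fold change of 0.00020. Of the 3 with an unadjusted p under 0.05, Klf10, an early transcriptional target, averaged 47.7 ± 3.20 CPM under vehicle and 40.7 ± 5.07 CPM under AZ6983 (SD, n = 6 each). It was under the lowest control in 5 of 6 treated mice (log2 fold change −0.23, adjusted p = 0.450 from edgeR). Elastin (Eln) averaged 734 ± 121 and 914 ± 184 CPM, a log2 fold change of 0.32, and the protease inhibitor Timp1 at 28.0 ± 7.83 and 17.7 ± 10.4 CPM, a log2 fold change of −0.66 (SD, n = 6 each, adjusted p = 0.487 for both, edgeR). For Timp1 5 of 6 AZ6983 mice lay below every control, and the groups overlapped through 1 AZ6983 mouse at 38.3 CPM.

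**Figure D5:**
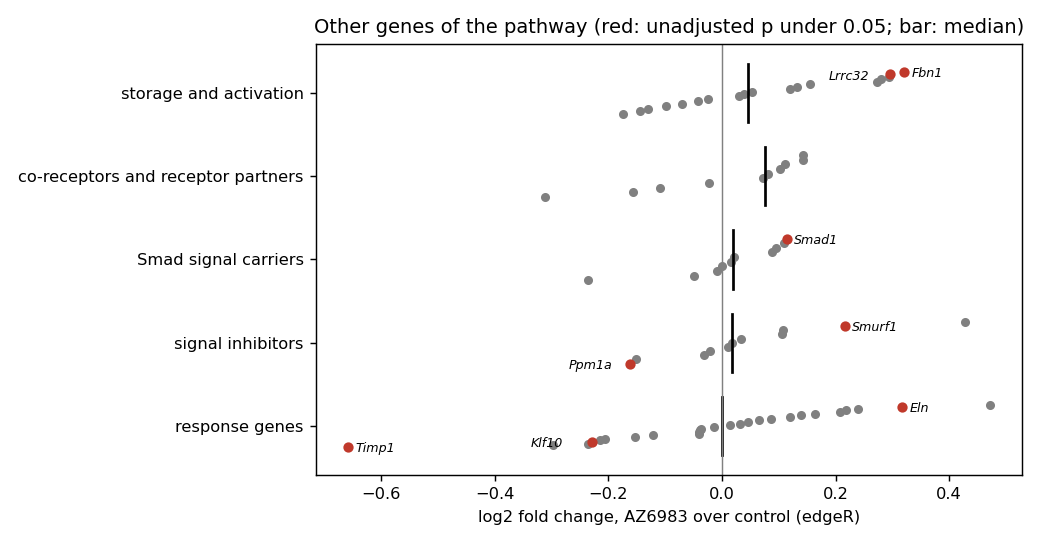
Log2 fold change, AZ6983 over control, of the 75 tested pathway genes in 5 lists, 1 point per gene, with the median of each list as a bar. The 8 genes with an unadjusted p under 0.05 are red and named, and most points lie between −0.3 and 0.3.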

How the data were processed

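RNA sequencing of thoracic aorta was done in 12 apoe-/- mice, 6 per group. The authors removed ribosomal RNA, made stranded total RNA libraries, sequenced read pairs and deposited raw counts per gene symbol. The submitters' processing notes name CASAVA 1.8.2, STAR 2.5.2b, HTSeq 0.6.1p1 and mm10, without settings. The annotation is not given in the sources used here. Library sizes and tests leave out 3 rows without a gene, which hold reads on no gene (8.02% to 14.9% per mouse), reads aligned to several places (18.1% to 23.2%) and ambiguous reads (0.606% to 0.698%).

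Counts went into edgeR 4.0.16 under R 4.3.3 (TMM, filterByExpr, quasi-likelihood test, no covariate) on all genes, with Benjamini-Hochberg adjustment at 10% FDR. A standard error is the absolute log2 fold change over the square root of F. Alternatives were DESeq2 1.42.0, limma-voom (limma 3.58.1), other scalings and filters, a covariate and each mouse left out. Log2 CPM used a prior count of 2. Correlations used 100000 permutations. Exon lengths and positions came from GENCODE M21, and promoters from RefSeq, which had entries for 8 members (Tgfb3 and Tgfbr3 had none). Protein sequences were not used here.

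The genes named were every member, Apoe, Chrna7, the 3 pathway genes per list with the smallest p and the 2 genes most like each member, with some items of these results not reported here. Members and lists were chosen with earlier results of these data known. On simulated data with 200 of 15767 genes changed 2-fold, edgeR recovered 191 with 20 false calls. The simulation gave every gene the same dispersion (spread between mice), the median over genes, and had no outlying mouse. Recovery by edgeR was not tested for genes with a wider spread, such as Tgfb2, Ltbp2 and Ltbp3. Nor was it tested for changes as small as those of the members (log2 fold change −0.22 to 0.38). Of the other marker lists, summed levels in controls and AZ6983 mice were 1075 to 1287 and 1194 to 1402 CPM (endothelial), 479 to 628 and 441 to 689 (macrophage), 1691 to 2303 and 1613 to 2837 (adventitial fibroblast), 80.5 to 144 and 68.9 to 145 (cartilage), 4.28 to 461 and 14.3 to 478 (skeletal muscle) and 9.76 to 193 and 10.4 to 126 (cardiac muscle). Precision falls with the count, and the fewest for a member were 283, for Tgfb1.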

Additional observations from a re-analysis of the deposited data

Results flagged for a closer look

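In 48 groups of 6 mice, each holding 1 measure (a member, a marker score or a library measure), 5 had a mouse far from its group. About 1 in 20 groups, here 2.4, would by chance. In log2 CPM, Tgfbr1 was low in mouse A5 (7.10, the other AZ6983 mice at 7.61 to 7.86) and Ltbp1 was high in control mouse C6 (9.73, the other controls at 9.30 to 9.45). The brown fat score was low in C6 (7.22, the others 7.89 to 8.16), while C2 had a high score for white fat (8.01, against 7.20 to 7.46). The cartilage score was high in A2 (4.37, the other AZ6983 mice 2.65 to 3.22), but within the 3.01 to 5.48 of controls. The mean of that score, AZ6983 minus control, differed by −1.29 (exact permutation p = 0.0303, two-sided, adjusted p = 0.182 over 12 scores). That score holds the 3 tested genes of 6 listed, of which 1 was higher and 2 were lower in AZ6983 mice. The part of these tissues in the members' values was not tested.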

How the results depend on the processing

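With every alternative run, 0 of the 10 members passed 10% FDR, the leave-one-out fits included, so the doubt over the library of A1 changes no call. Over all genes, the count passing 10% FDR was 0 in edgeR and 92 in DESeq2 with its defaults, 84 in DESeq2 on filtered genes, 4 in limma-voom with sample quality weights and 2 with library totals only. With a mouse left out it was 0 to 27, reaching 27 without A5 and 1 without C6 or without A1. Genes with an unadjusted p under 0.05 numbered 1616, against 2449 with sample quality weights, 467 with the no-gene read share as covariate, and 1046 (without C1) to 2233 with a mouse left out. The sign of a log2 fold change turned with that covariate for Tgfb1 (−0.0088), Tgfb2 (−0.29), Ltbp2 (−0.41), Ltbp3 (−0.11) and Ltbp4 (−0.11). For Ltbp2 it also turned with limma-voom (−0.051), sample quality weights (−0.069), upper quartile scaling (−0.0018), library totals only (−0.019) and no filter (−0.0089), and leave-one-out values ran from −0.25 to 0.10. For Ltbp1 it turned with sample quality weights (0.0050), and leave-one-out values ran from −0.15 to 0.012 (without C6), also turning without A5. For Tgfbr3 they ran from −0.0066 to 0.10, turning without A5. The cause was not tested. With the longest transcript as length, the medians were 99.3 CPM per kilobase for Ltbp1, 15.1 for Ltbp3 and 5.04 for Tgfb1, and each of the 10 members kept its rank. Correlations that passed kept their sign on residuals from the group means and without the 2 farthest mice. No paired analysis was possible because each mouse has its own number and the groups share none. How far depth limits the members' values was not tested.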
